A study of Homo sapiens with 3 samples.

Results

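Integrins are the cell surface receptors that hold cells to the extracellular matrix, and laminins are large glycoproteins of the basement membrane that several of these receptors bind. The genes were picked by symbol from the deposited gene tables, with earlier results of these data known. Of the 39320 gene rows on the named chromosomes, 38 matched, comprising 18 integrin alpha, 8 integrin beta, 5 laminin alpha, 4 laminin beta and 3 laminin gamma genes. The series holds RNA-seq of 3 libraries, which the labels give as replicates 1 to 3 of HepG2 in wild-type form. The paper describes HepG2 as a hepatocellular carcinoma cell line. The labels name neither a treatment nor a second condition. All values come from libraries with this 1 label, and nothing in the labels says whether the libraries came from separate cultures, so the spread between them may be technical. Levels are given as TPM, transcripts after scaling for length and to a fixed total per library, with the SD over 3 libraries.

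Each integrin receptor is a pair of 1 alpha and 1 beta subunit, and the pair sets the ligand. Receptors with the alpha subunits of ITGA3, ITGA6 or ITGA7 bind laminins, those with ITGA1, ITGA2, ITGA10 or ITGA11 bind collagens, and those with ITGA5, ITGA8 or ITGAV bind proteins that carry the arginine-glycine-aspartate (RGD) motif, such as fibronectin and vitronectin. The beta subunit of ITGB2 and the alpha subunits it joins are found on leukocytes. A laminin is a trimer of 1 alpha, 1 beta and 1 gamma chain, and normal liver sinusoids are known for having little organized basement membrane.

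The number of reads per library is unknown because the tables hold no counts. As a guide to relative depth, the coverage of a gene divided by its FPKM reached at most 13.3, 12.8 and 11.5 in replicates 1, 2 and 3. The mitochondrial tRNA gene TRNC took between 16.9% and 17.2% of all TPM. Of 6 secreted proteins that mark hepatocytes, none reached 1 TPM in every library, 4 (SERPINA1, APOB, APOA1 and ALB) stood at 0 throughout, and the summed level of the 6 was 0.0417 to 0.227 TPM. Of 5 epithelial markers, KRT8 and KRT18 were above 10 TPM and the summed level was 4517 to 4772 TPM, while EPCAM, KRT19 and CDH1 were not above 1 TPM in every library. HepG2 cells are known for secreting these hepatocyte proteins, so the marker levels go against the label, and the libraries are called by their label only. In such bulk RNA, fewer cells that express a gene and less RNA per cell cannot be told apart.

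In 19 of the 38 genes the level was 1 TPM or more in each library, and these are called expressed here, and the other 19 were below 1 TPM in every library. This share of 50.0% compares with 33.8% of all 39320 gene rows and with 59.5% of the 18739 rows that RefSeq lists as protein coding. At least 10 TPM in every library was reached by 14 of the 38 genes (36.8%), against 20.7% of all rows and 40.4% of the protein coding rows. The expressed genes were 7 of 18 integrin alpha, 4 of 8 integrin beta and 8 of 12 laminin genes. Summed over the family, the integrin genes had 580.0, 541 and 529 TPM in replicates 1, 2 and 3, and the laminin genes had 444, 426 and 406 TPM.

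**Figure D1:**
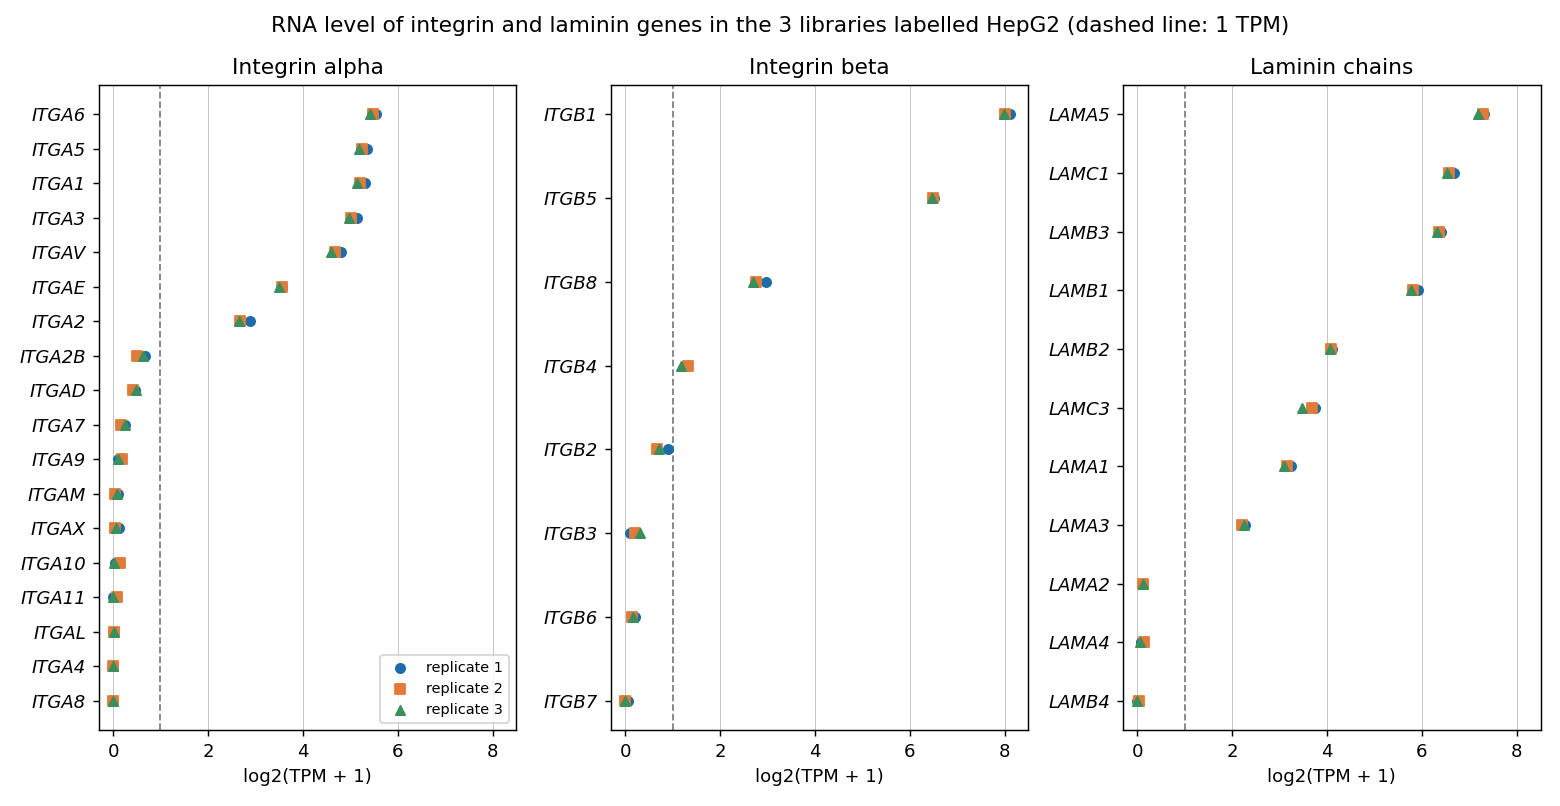
Levels of 37 of the genes on the x axis as log2(TPM + 1), with 1 point for each of the 3 libraries and the genes of each class ordered by mean TPM. The 19 expressed genes lie to the right of the dashed line at 1 TPM in all 3 libraries, with ITGB1 and LAMA5 at the top of the beta and laminin panels.

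ITGB1, which encodes the beta subunit shared by most matrix receptors, was the most abundant of the 38 genes, with 277, 255 and 252 TPM in replicates 1, 2 and 3 and a mean of 261 ± 13.5 TPM (SD, n = 3). Among genes whose mean was 1 TPM or more, its mean exceeded that of 96.4%, and it gave 73.5%, 72.5% and 72.6% of the TPM of all beta subunits in the 3 libraries. The deposited row of ITGB1 spans 32900318 to 32958230 of chromosome 10 in GRCh38, minus strand. ITGB5, whose product pairs with the alpha subunit of ITGAV, followed with 90.4, 88.5 and 87.2 TPM (88.7 ± 1.65, SD, n = 3). ITGB8, another partner of ITGAV, had 6.79, 5.78 and 5.46 TPM. ITGB4, whose long cytoplasmic tail anchors hemidesmosomes to keratin, was barely above the limit, with 1.40, 1.51 and 1.28 TPM. The values of these 4 genes did not overlap, so their order held in every library. The other 4 beta genes, ITGB2, ITGB3, ITGB6 and ITGB7, stayed below 1 TPM, and ITGB3 and ITGB6 overlapped each other.

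Among the alpha subunits, no gene stood as far above the others as ITGB1 did among the beta subunits. ITGA6, for a laminin receptor subunit, had 45.3, 43.5 and 41.6 TPM (43.5 ± 1.85, SD, n = 3), or between 22.3% and 22.9% of the TPM of all alpha subunits. ITGA5, for the alpha subunit of the main fibronectin receptor, had 39.7, 37.1 and 35.4 TPM. ITGA1, for a collagen receptor subunit, had 38.9, 35.7 and 34.5 TPM. The values of ITGA5 and ITGA1 overlapped between libraries, although ITGA5 was higher within each. ITGA3, for a laminin receptor subunit, had 34.2, 31.6 and 30.2 TPM. ITGAV, whose product pairs with several beta subunits, had 26.9, 24.5 and 23.2 TPM. All 5 lay between 23.2 and 45.3 TPM in every library, while the last expressed alpha genes were lower, with 10.6 ± 0.288 TPM for ITGAE and 5.69 ± 0.621 TPM for ITGA2 (SD, n = 3).

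The place of ITGA6 depended on the scale. By coverage, the mean read depth over a gene without scaling for library size, ITGA6 had 37.4, 34.8 and 30.1 in replicates 1, 2 and 3, and its place among the 18 alpha genes fell from 1 to 6. ITGA5 then came first with a mean coverage of 220 ± 27.1, followed by ITGA1 with 218 ± 27.0 (SD, n = 3), and ITGA3 had a mean of 186. The ratio of coverage to FPKM, relative to the highest in its library, was 0.132, 0.130 and 0.131 for ITGA6, against 1.00 in all 3 libraries for ITGA1. The only other expressed gene of the 19 below 0.4 on this measure was LAMB1, at 0.380, 0.374 and 0.371. RefSeq lists 10 transcripts for ITGA6, 3 for LAMB1 and 1 for ITGA1. It lists 10 for ITGB5, with ratios of 0.888, 0.870 and 0.827, and 13 for ITGB8, with 0.498, 0.493 and 0.495. Whether the number of transcripts plays a part in the ratio was not tested.

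**Figure D2:**
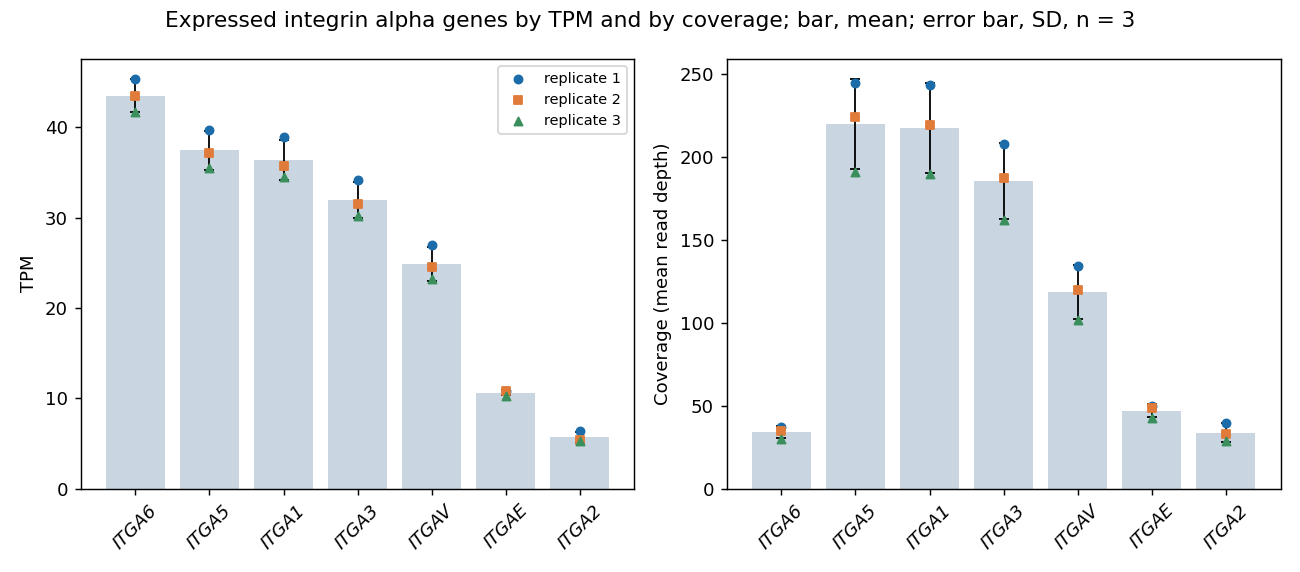
Mean TPM on the left and mean coverage on the right for the 7 expressed integrin alpha genes, with bars from 0, error bars for the SD over 3 libraries and 1 point per library. ITGA6 is the highest bar by TPM, at 43.5, and is level with ITGA2 by coverage, at 34.1 against 33.8.

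Among the laminins, LAMA5 led the alpha chains, LAMC1 the gamma chains and LAMB3 the beta chains, with LAMB1 next. LAMA5, which encodes the alpha chain of the most widespread laminins of adult epithelia, had 157, 155 and 144 TPM in replicates 1, 2 and 3 (152 ± 7.34, SD, n = 3). It gave 92.7%, 93.0% and 92.6% of the TPM of all laminin alpha chains. LAMC1, for the gamma chain of most laminins, had 102, 94.7 and 91.6 TPM. LAMB1, the usual beta chain beside them, had 59.3, 55.4 and 53.6 TPM. LAMA1, for the alpha chain of embryonic basement membranes, was far below LAMA5 with 8.49, 7.87 and 7.54 TPM. LAMB2, for a beta chain of nerve, muscle and kidney basement membranes, had 16.3, 16.1 and 15.8 TPM, and LAMC3 had 12.3, 11.8 and 10.2 TPM. LAMA2 and LAMA4, for the alpha chains of muscle and of vessels, had 0.0864 ± 0.00585 and 0.0700 ± 0.0281 TPM (SD, n = 3), and LAMB4 was above 0 in 1 library only, at 0.0216 TPM.

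LAMB3 was the highest laminin beta gene, with 83.4, 80.9 and 78.5 TPM in the 3 libraries (80.9 ± 2.45, SD, n = 3), or between 52.5% and 53.1% of the beta chain TPM. Its product joins the alpha chain of LAMA3 in a laminin that anchors skin epithelium to its basement membrane. LAMA3 had 3.82, 3.60 and 3.78 TPM, below LAMB3 in every library. ITGB4 and COL17A1, whose products join this laminin in hemidesmosomes, had 1.39 ± 0.115 and 0.652 ± 0.174 TPM (SD, n = 3). The markers of basal epithelium, KRT5, KRT14 and TP63, were all below 1 TPM, with a summed level of 1.04 to 1.19 TPM and KRT5 at 0 in all 3 libraries.

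To see which receptors and trimers had RNA for every subunit, the lowest subunit was read for 24 known integrin pairs and 11 known laminin trimers. This describes RNA and says nothing of assembled protein. All subunits reached 1 TPM in every library in 9 of the 24 integrin pairs, and 10 TPM in 6 of them. The 6 were α3β1, α6β1, α1β1, α5β1, αvβ1 and αvβ5, and in every one of them the alpha subunit was the lower. For α6β1, the lower subunit ITGA6 had 43.5 ± 1.85 TPM and ITGB1 was 6.00 times as high. For α6β4, the lower subunit was ITGB4, and ITGA6 was 31.2 times as high. By coverage these folds were 43.3 and 6.47, with the same subunits the lower. Among the RGD receptors, αvβ5 had 24.9 ± 1.87 TPM of its lower subunit ITGAV, whereas αvβ3 and αvβ6 had 0.159 ± 0.0870 and 0.127 ± 0.0289 TPM of theirs (SD, n = 3).

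Of these 11 laminin trimers, 6 had at least 1 TPM of every chain in every library and 2 had at least 10 TPM. These 2 contain the alpha chain of LAMA5. The trimer α5β1γ1 had 59.3, 55.4 and 53.6 TPM of its lowest chain, LAMB1, and the trimer α5β2γ1 had 16.3, 16.1 and 15.8 TPM of its lowest, LAMB2. Neither overlapped any other of the 11 trimers, the next of them being both trimers with LAMA1 at 7.97 ± 0.481 TPM of that chain (SD, n = 3). Among the 11, LAMC3 stands only in a trimer with LAMA2, and LAMB3, the highest laminin beta gene, stands in none. Combinations outside this list, such as LAMC3 with the alpha chain of LAMA5, were not read, so these counts and this order hold for the list only.

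**Figure D3:**
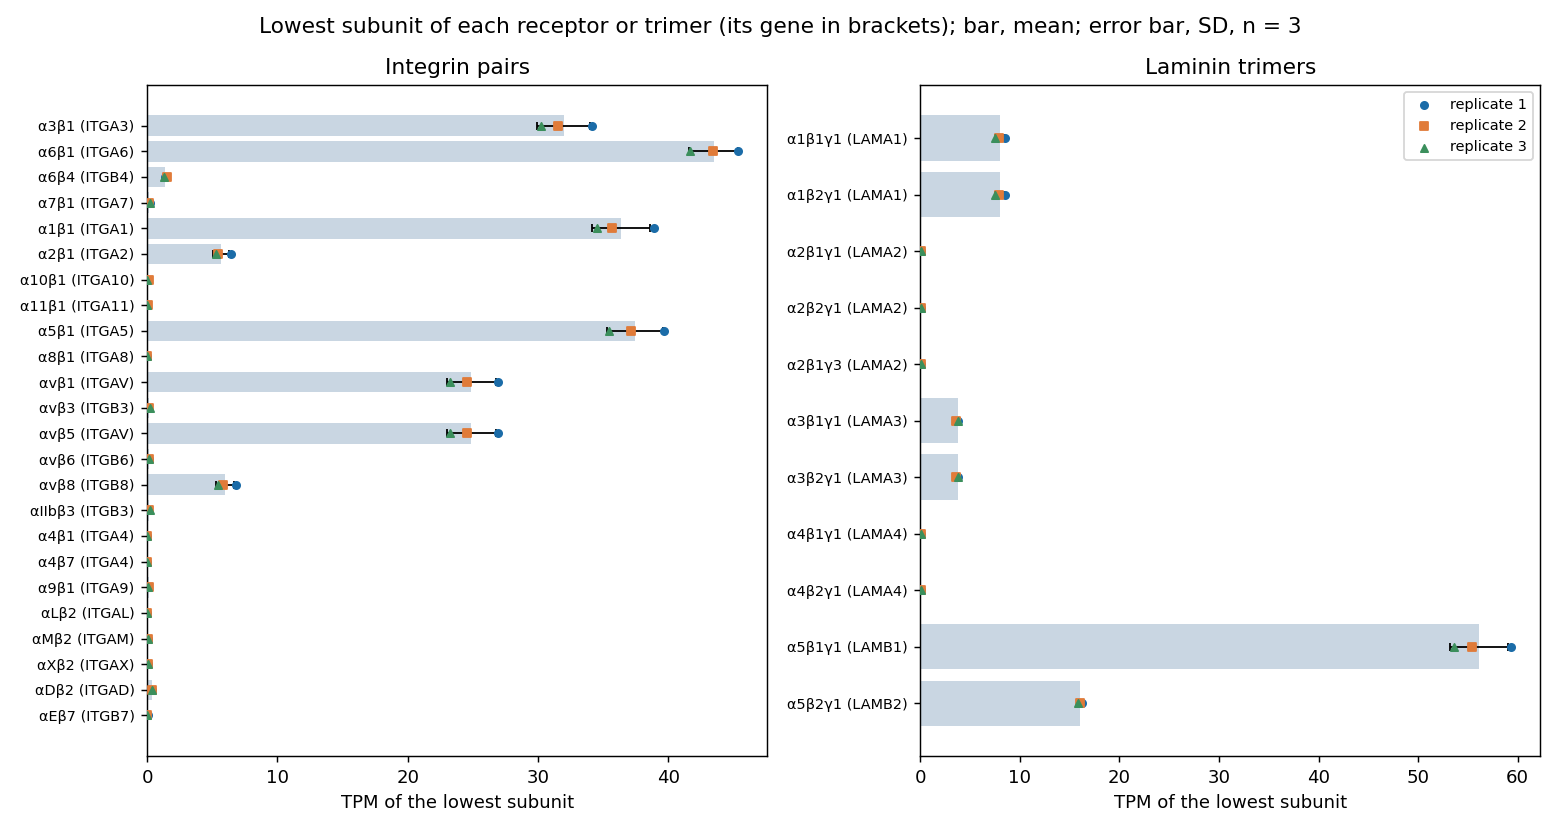
TPM of the lowest subunit of 24 integrin pairs and 11 laminin trimers, with bars from 0 for the mean, error bars for the SD and points for the 3 libraries; the gene of the lowest subunit is in brackets. The α6β1 pair and the α5β1γ1 trimer have the longest bars, at 43.5 and 56.1 TPM. By mean coverage, which is not drawn, ITGA6 at 34.1 is below ITGA5, ITGA1, ITGA3 and ITGAV, so the lead of α6β1 depends on the scale. LAMB1 at 126 stays above LAMB2 at 95.4.

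Ratios between subunits or chains were compared within each library in 10 pairs, of which 9 are given. On the log2(TPM + 1) scale, ITGB1 exceeded ITGB5 by 1.55 ± 0.05 and ITGB4 by 6.77 ± 0.09, and ITGA6 exceeded ITGB4 by 4.22 ± 0.06 (SD, n = 3). The ratio of ITGA3 to ITGA6 was -0.43 ± 0.03, and that of ITGAV to ITGB5 was -1.79 ± 0.08. Among the laminins, the ratio was -4.09 ± 0.04 for LAMA1 to LAMA5, 1.74 ± 0.05 for LAMB1 to LAMB2, -0.77 ± 0.0043 for LAMB1 to LAMC1 and 0.66 ± 0.04 for LAMA5 to LAMC1. Each of these ratios had 1 direction in 3 of 3 libraries and was larger than its SD. With 3 libraries, an exact permutation test that flips signs, two-sided, cannot go below 0.25, and each pair had p = 0.25, which stayed 0.25 after Benjamini-Hochberg adjustment over the 10 pairs. By coverage, the ratio of ITGA3 to ITGA6 reversed to 2.41. Of the 9 given, the 4 others that moved most went to 7.88 for ITGB1 to ITGB4, 2.49 for ITGA6 to ITGB4, 0.39 for LAMB1 to LAMB2 and -2.18 for LAMB1 to LAMC1. The pseudocount of 1 was also added to coverage, where ITGB4 had a mean of 5.27 against 1.39 TPM. Its part in the 2 ratios with ITGB4 was not tested. With a pseudocount of 0.1 in place of 1, ITGB1 to ITGB4 was 7.45 and ITGA6 to ITGB4 was 4.87.

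The genes below 1 TPM include those of the leukocyte and platelet receptors. The leukocyte subunit gene ITGB2 had 0.873, 0.585 and 0.642 TPM, and its alpha partners ITGAL, ITGAM, ITGAX and ITGAD were between 0 and 0.391 TPM. The 5 leukocyte markers summed to 0.964 to 1.33 TPM, with PTPRC and CD3E at 0 in all 3 libraries. The platelet receptor genes ITGA2B and ITGB3 had 0.524 ± 0.0904 and 0.159 ± 0.0870 TPM (SD, n = 3), while the platelet markers PF4, PPBP and GP9 were at 0 and GP1BA had 2.51 ± 0.224 TPM, so that the 4 summed to 2.26 to 2.71 TPM. Of 3 endothelial markers, only VWF was above 1 TPM in every library and the sum was 1.45 to 1.85 TPM. Of 5 stellate or smooth muscle markers, ACTA2, PDGFRB and RGS5 were, and the sum was 6.76 to 8.04 TPM. ITGA4 and ITGA8 were listed at 0 in all 3 libraries, and ITGA11, ITGAL, ITGB7 and LAMB4 were listed at 0 in 1 or 2 of them. ITGA7, ITGA9 and ITGA10 stayed at or below 0.199 TPM, and neighbours in the order of these lowest genes overlapped in most cases.

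ITGAE was the exception among the genes known from leukocytes, with 10.8, 10.8 and 10.3 TPM. Its product pairs with that of ITGB7 alone, and ITGB7 had 0.0456 TPM in replicate 1 and was listed at 0 in the others. The row of ITGAE on chromosome 17 (3714628 to 3803766, minus strand) contains the whole row of HASPIN on the opposite strand, which had 15.2 ± 1.07 TPM, and overlaps NCBP3 on the same strand over 1609 bp, which had 22.1 ± 3.35 TPM (SD, n = 3). ITGA1 overlaps PELO on the same strand of chromosome 5 over 15743 bp, and PELO had 31.1 ± 0.788 TPM (SD, n = 3). The sources used here do not give the strand setting, and the part of shared reads in the levels of ITGAE and ITGA1 was not tested.

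Several of these genes are neighbours in the genome. LAMB1 and LAMB4 lie 8485 bp apart on chromosome 7 and had 56.1 and 0.00720 TPM. ITGA1 and ITGA2, 35670 bp apart on chromosome 5, had 36.4 and 5.69 TPM. On chromosome 16, ITGAM, ITGAX and ITGAD follow each other with gaps of 22241 and 10225 bp, and all 3 were below 1 TPM.

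The 250 bases before the RefSeq start were read from RefSeq promoter windows on GRCh38.p14 for the 23 genes with a window within 1000 bp of the start of the deposited row. ITGA3, ITGA7, ITGA9, ITGAD, ITGAL, ITGAX, ITGB2, ITGB3, ITGB4, LAMA1 and LAMC3 have no entry in this table. The windows of ITGAE, ITGB8 and LAMA3 lie farther away and were left out. The 3 most abundant genes are shown here with ITGB6 and ITGA10, which have few CG dinucleotides and little RNA, because they mark the ends of the range. They were chosen after the values were seen, and the windows of LAMA5, ITGB6 and ITGA10 reach into the deposited rows of these genes. Each is written 5′ to 3′ on the strand of its gene, and capitals mark the GC box, GGGCGG or its complement CCGCCC. They lie at chr10:32958231-32958480 (minus strand, ITGB1), chr20:62367313-62367562 (minus strand, LAMA5), chr1:183023170-183023419 (plus strand, LAMC1), chr2:160200273-160200522 (minus strand, ITGB6) and chr1:145910051-145910300 (minus strand, ITGA10).
ITGB1: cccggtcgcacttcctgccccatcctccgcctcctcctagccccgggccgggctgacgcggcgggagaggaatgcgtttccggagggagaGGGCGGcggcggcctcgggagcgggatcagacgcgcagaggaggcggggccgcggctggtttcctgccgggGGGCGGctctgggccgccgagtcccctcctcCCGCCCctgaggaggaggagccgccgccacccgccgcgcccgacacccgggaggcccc
LAMA5: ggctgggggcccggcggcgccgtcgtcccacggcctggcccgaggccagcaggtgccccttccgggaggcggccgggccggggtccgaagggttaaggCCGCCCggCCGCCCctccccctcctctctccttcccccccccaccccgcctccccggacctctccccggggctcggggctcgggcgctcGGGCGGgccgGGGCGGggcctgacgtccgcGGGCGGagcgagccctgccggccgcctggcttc
LAMC1: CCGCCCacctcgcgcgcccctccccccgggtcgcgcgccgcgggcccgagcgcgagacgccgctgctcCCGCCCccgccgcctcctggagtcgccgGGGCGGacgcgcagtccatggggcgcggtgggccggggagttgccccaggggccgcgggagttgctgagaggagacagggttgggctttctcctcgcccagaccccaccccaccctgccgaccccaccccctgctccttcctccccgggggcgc
ITGB6: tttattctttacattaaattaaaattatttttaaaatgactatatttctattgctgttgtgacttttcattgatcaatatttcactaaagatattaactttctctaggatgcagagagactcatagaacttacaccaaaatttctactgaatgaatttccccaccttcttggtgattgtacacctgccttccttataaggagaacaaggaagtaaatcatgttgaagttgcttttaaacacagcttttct
ITGA10: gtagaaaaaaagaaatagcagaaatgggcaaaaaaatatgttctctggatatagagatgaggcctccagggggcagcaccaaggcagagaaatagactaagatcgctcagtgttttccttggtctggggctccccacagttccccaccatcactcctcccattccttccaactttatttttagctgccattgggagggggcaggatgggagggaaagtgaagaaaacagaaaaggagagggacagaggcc

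ITGB1, LAMA5 and LAMC1, the top 3 genes by TPM, each had 32 CG dinucleotides in this window, with 3, 5 and 3 GC boxes. ITGB6 had 0 and ITGA10 had 1 CG dinucleotide, as did LAMB4, and none of these had a GC box. Over the 12 expressed genes with a window, the number of CG dinucleotides ran from 8 to 32 with a median of 17, and 9 of the 12 had a GC box (75.0%). Over the 11 others it ran from 0 to 25 with a median of 2, and 2 of the 11 had a GC box (18.2%), namely ITGAM and ITGA8. Among all protein coding genes with such a window, a GC box was found in 70.2% of 8418 expressed genes and 38.9% of 4804 others, with medians of 22 and 7 CG dinucleotides. Of all 35116 windows in the table, 42.6% held a GC box. ITGA4, ITGA11 and ITGA8 had 25, 23 and 19 CG dinucleotides with at most 0.0560 TPM in any library, while ITGA6 and LAMB3 had 8 each and were expressed at 43.5 and 80.9 TPM. The RefSeq starts of ITGA4, ITGA11 and ITGA8 lay 494, 149 and 413 bp from the starts of their deposited rows. The distance was 386 bp for ITGA1 and 18 and 42 bp for ITGA6 and LAMB3. The row of ITGA1 starts at 52788302, and that of PELO, on the same strand, starts before it at 52787916. The window of ITGA1 may therefore be the sequence before the start of PELO. A match to these 6 letters is a description of the sequence and not a measured binding site.

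**Figure D4:**
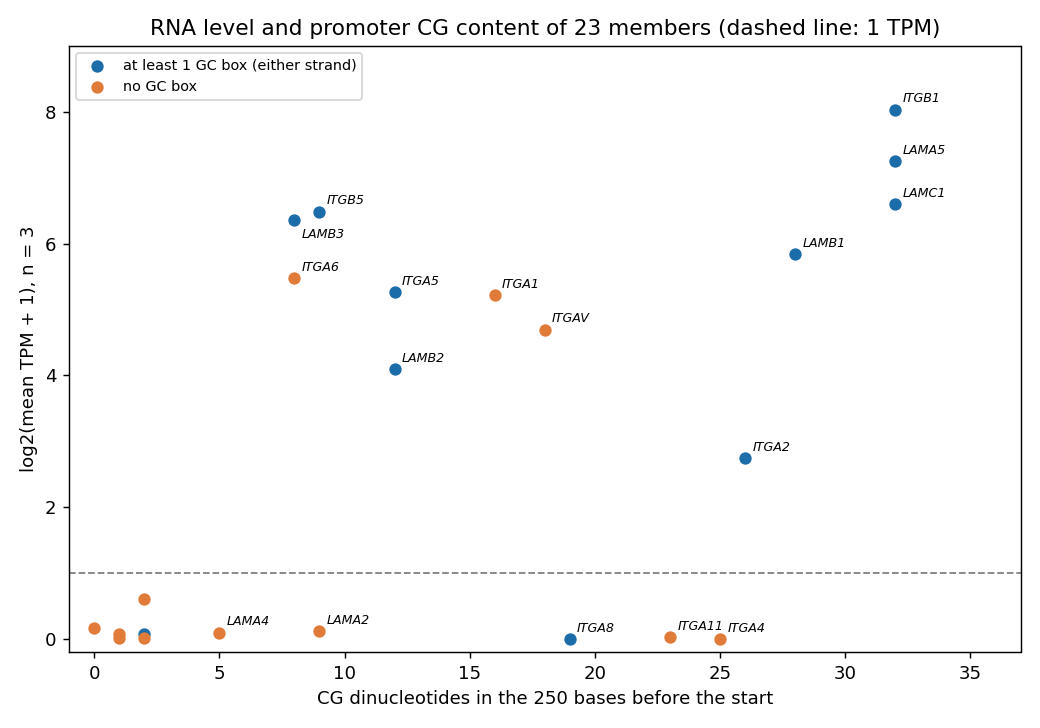
Number of CG dinucleotides in the 250 bases before the start (x axis) against log2(mean TPM + 1) over 3 libraries (y axis) for 23 genes, coloured by the presence of a GC box; genes below the dashed line at 1 TPM with fewer than 5 CG dinucleotides are not labelled. ITGB1, LAMA5 and LAMC1 lie at the upper right with 32, and ITGA4, ITGA8 and ITGA11 lie at the bottom with 19 to 25.

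The spread between libraries was small for the expressed genes, and close to that of all expressed genes. Their coefficient of variation ran from 1.45% for LAMB2 to 11.5% for ITGB8, with a median of 5.47%, against 5.95% over all 13307 expressed genes. None of the 38 genes had a range of log2(TPM + 1) above 1 between libraries, against 0.649% of all gene rows. That share is so low that a count of 0 does not set these genes apart. A row below 1 TPM in every library, as 19 of the 38 were, cannot pass this limit whatever its relative spread. The largest range was 0.27, for ITGB8. The differences nevertheless had 1 direction. Replicate 1 was above replicate 3 in 19 of 19 expressed genes, against 71.8% of all expressed genes, and the median difference was 0.15 on the log2 scale (0.09 over all expressed genes). Replicate 1 was the highest library for 18 of the 19, with ITGB4 as the exception, and replicate 3 was the lowest for 18, with LAMA3 as the exception.

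Transcript length moved with this difference. Of the 19 genes, 16 were among the longest when expressed genes were put into 3 classes of equal size by their longest GENCODE v44 transcript (limits of 2732 and 4825 nt). In the class of longest transcripts, replicate 1 was above replicate 3 in 86.4% of 4076 genes with a median log2 difference of 0.14, against 57.3% of 4077 genes and 0.03 in the class of shortest transcripts. Replicate 1 also had the greatest relative depth, as given above. The part of length or depth in the difference was not tested.

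**Figure D5:**
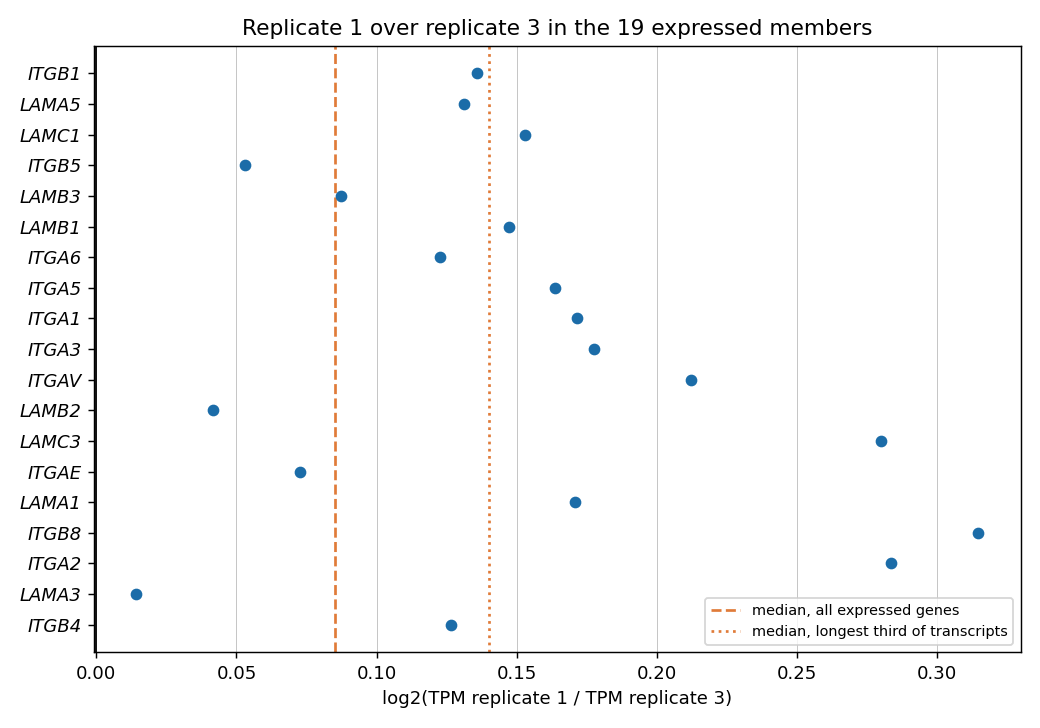
Log2 of the TPM in replicate 1 over that in replicate 3 for the 19 expressed genes, 1 point per gene, ordered by mean TPM. All points lie to the right of 0, from 0.01 for LAMA3 to 0.31 for ITGB8, and the dashed and dotted lines give the medians of all expressed genes (0.09) and of the class of longest transcripts (0.14).

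The genes for the matrix proteins that these receptors bind were read as lists. For scale, 59.5% of the rows that RefSeq lists as protein coding reached 1 TPM in every library, and 40.4% reached 10 TPM. Of 6 basement membrane partners of laminins, 5 had at least 10 TPM in every library. COL4A2 and COL4A1, the main collagen chains of basement membranes, had 161 ± 10.9 and 66.7 ± 6.23 TPM, and the heparan sulfate proteoglycan genes AGRN and HSPG2 had 211 ± 4.22 and 47.2 ± 3.43 TPM (SD, n = 3). NID1, for a protein that links laminin to collagen, was listed at 0 in all 3 libraries, while its paralog NID2 had 12.4 ± 0.757 TPM. Of 14 other ligands, 8 reached 1 TPM in every library, which is near the share of protein coding rows. FN1, the ligand of the α5β1 receptor, had 1.04, 0.804 and 0.883 TPM beside 37.4 ± 2.14 TPM of ITGA5. VTN, a ligand of αvβ5, had 23.3 ± 0.560 TPM, and FBN1, another RGD protein, had 121 ± 7.68 TPM. NPNT, a ligand of the α8β1 receptor, had 87.4 ± 5.52 TPM (SD, n = 3), whereas ITGA8 was listed at 0 in all 3 libraries. TNC and VCAM1 were also listed at 0 in all 3.

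Of the laminin receptors other than integrins, 5 of 5 listed genes reached 10 TPM in each library, from 13.8 ± 0.884 TPM for BCAM, which binds the alpha chain of LAMA5, to 214 ± 10.8 TPM for DAG1, the dystroglycan gene, and 1859 ± 17.0 TPM for RPSA, which also encodes a ribosomal protein (SD, n = 3). RPSA has many near-identical processed copies, so its level is uncertain. Of 6 hemidesmosome and tetraspanin partners, 5 had at least 10 TPM. Both lists are short and were chosen with earlier results known, and 40.4% of protein coding rows reached 10 TPM in every library. CD151, a tetraspanin that associates with laminin receptors, had 262 ± 6.44 TPM, and PLEC, the plectin gene, had 119 ± 6.94 TPM (SD, n = 3).

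Inside the cell, integrin tails are linked to actin by adaptor proteins, and 15 of the 16 listed adaptor genes reached 1 TPM and 13 reached 10 TPM in each library. Among all protein coding rows these shares were 59.5% and 40.4%, and the list was chosen with earlier results known. VCL, ZYX and PXN, for vinculin, zyxin and paxillin, were the highest with 167 ± 11.5, 122 ± 1.66 and 104 ± 0.936 TPM (SD, n = 3). In the talin pair, which activates integrins, TLN1 had 42.9 ± 3.27 TPM and TLN2 had 2.01 ± 0.229 TPM. In the kindlin family, FERMT2 had 68.2 ± 3.75 TPM and FERMT1 had 9.51 ± 1.10 TPM, whereas FERMT3, known from blood cells, had 0.866 ± 0.0419 TPM (SD, n = 3). Of 4 genes for integrin inhibitors and traffic, 3 reached 1 TPM, with ITGB1BP1, whose product competes with talin for the tail of the beta subunit of ITGB1, at 74.1 ± 2.64 TPM, and RAB25 at or below 0.0583 TPM.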

How the data were processed

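The data are 3 RNA-seq libraries of 1 condition, wild-type HepG2 by their labels. Per the paper's methods and the submitters' processing notes, 150 bp paired-end reads were filtered with FastQC 0.11.8 and Trim Galore 0.6.2 and mapped to GRCh38 with STAR 2.6.1a, and the notes also name StringTie. The annotation and strand setting are not given in the sources used here. The TPM deposited by the authors is scaled for length and to 1 total per library. The FPKM deposited by the authors is scaled for length and library size, and the deposited coverage is taken as mean read depth, not scaled for library size. The tables hold no counts, so depth is unknown and no counting error is given.

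The tables were merged on identifier, symbol and position, giving 43389 shared rows. Unplaced and alternate sequences were left out, and genes were picked by symbol. The members and lists were chosen with earlier results of these data known. All 38 members and the listed genes could be named, with values for the highest and for those at 0. A pseudocount of 1 was used on the log2 scale. The calculation of ranges was tested on made-up libraries: 200 changed genes were recovered and 0 others called, with 8435 genes. No test between conditions was possible. Alternatives were other limits on TPM, a pseudocount of 0.1, FPKM or coverage, 2 other scalings and leaving out each replicate. Tools were pandas 2.3.3, numpy 2.4.6, statsmodels 0.14.6, scipy 1.17.1 and matplotlib 3.10.9 under Python 3.11.15. The values of 1 gene are not reported here.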

Additional observations from a re-analysis of the deposited data

How the results depend on the processing

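The number of expressed integrin and laminin genes was 19, and it was 25 when 0.1 TPM sufficed, 14 when 10 TPM was required, and 19 without mitochondrially encoded genes, with median-of-ratios scaling and without any 1 replicate. Of the 10 ratios, the ratio of ITGA3 to ITGA6 reversed by coverage, from -0.43 to 2.41, and the cause was not tested. By coverage the sizes also moved from 4.22 to 2.49 for ITGA6 to ITGB4, from 6.77 to 7.88 for ITGB1 to ITGB4, from 1.74 to 0.39 for LAMB1 to LAMB2 and from -0.77 to -2.18 for LAMB1 to LAMC1. The other 9 kept their direction by coverage, and all 10 did so with a pseudocount of 0.1, by FPKM, without mitochondrially encoded genes and without any 1 replicate. By coverage, 30 of the 38 genes kept their place within their class. Leaving mitochondrially encoded genes out of the scaling raised the means of the 19 expressed genes by a factor of 1.25 and moved 26 of the 38 means by more than 1 SD. No gene had a range above 1 with or without a minimum mean of 1 or 10 TPM. The comparison by transcript length and the folds between subunits by coverage were chosen after seeing the data. No paired analysis was possible because there is only 1 group. Since depth is unknown, no upper limit can be given for genes at 0.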

Other observations

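Antisense rows overlap several of the laminin and integrin genes on the opposite strand. LAMA5-AS1, within the row of LAMA5, had 9.34 ± 0.654 TPM, and LAMC1-AS1, within the row of LAMC1, had 1.17 ± 0.0805 TPM (SD, n = 3). ITGA6-AS1 and ITGA9-AS1 had 0.473 ± 0.231 and 0.504 ± 0.120 TPM, and ITGB2-AS1 was at or below 0.127 TPM in every library. These genes were named after their values were seen, and without a known strand setting, reads of an antisense row and of its partner cannot be told apart.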
